A study of Mus musculus with 6 samples.

Results

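The lineage described here is the set of PB3 cells that carry the lentiviral barcode bc14-55-bc30-23349, the most frequent barcode among the cells profiled after 4 rounds of eribulin. PB3 is a mouse mammary tumour cell line. Members are all cells and nuclei whose latest deposited barcode call is this barcode, in either of the spellings that the deposited table uses: 5104 of 51785 cells and nuclei in all, and of 27342 with 1 called barcode. The barcode was chosen by its share of the barcoded ERI4 cells, so its shares are given as a description, and nothing is tested on them.

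Samples came from 10 conditions in 3 runs. For drug-treated conditions, the digit in the name is the number of drug rounds. Run 1 held untreated cells (UNT cells) and, in a library of their own, the ERI4 cells, given eribulin 4 times. Run 2 held ERI1, ERI2 and ERI3 cells, given eribulin, in 1 hashtag-multiplexed library, and PAC1, PAC2 and PAC3 cells, given paclitaxel, in another. Run 3 held nuclei, of untreated cells (UNT nuclei) and of eribulin-treated cells (ERI4 nuclei), from a combined RNA and chromatin assay. An eribulin round was 500 nM for 72 h followed by 48 h of recovery. Paclitaxel was given at 100 nM for 72 h in the first round and at 250 nM in later ones, with 48 h of recovery after the first in PAC2 and PAC3; no recovery is named for the final round of PAC2, and its length is not given for PAC1 and PAC3. All conditions shared the same cell line and were grown in DMEM/F12 medium. Each condition had 1 library or 1 part of a library, so cells are not replicates of a treatment, and no difference could be set against the spread between cultures. Median depth was 11267 to 20877 UMIs (counted RNA molecules) over the 8 conditions of cells; nuclei were shallower, with 3428 untreated and 2089 after eribulin. No gene values were analysed here, so the PB3 label was not set against marker genes. Intervals in parentheses are exact (Clopper-Pearson) 95% intervals for shares and order-statistic 95% intervals for medians, and cover counting error only.

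A lentiviral barcode is a short synthetic sequence that integrates into the genome of an infected cell, is transcribed, and is passed to all daughter cells, so that cells with the same barcode descend from the same infected founder. A founder that was infected several times carries several barcodes, and a droplet that holds more than 1 cell, or free RNA, also shows several. Eribulin blocks the growth of microtubule ends and paclitaxel stabilises microtubules; both disturb the mitotic spindle and are used against breast cancer.

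The designed barcodes have 48 bases: a 14-base first element (bc14), a constant 4-base linker and a 30-base second element (bc30). The lineage barcode is shown with both elements in capitals and the linker in lower case.
bc14-55-bc30-23349: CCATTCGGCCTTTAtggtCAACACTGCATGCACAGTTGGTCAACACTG
The 4 barcodes next in number of called ERI4 cells, to which the lineage is compared, are shown with capitals at the bases that differ from the lineage barcode.
bc14-95-bc30-33662: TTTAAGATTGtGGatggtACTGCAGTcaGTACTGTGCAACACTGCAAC
bc14-6-bc30-93034: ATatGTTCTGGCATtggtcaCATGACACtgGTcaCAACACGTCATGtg
bc14-76-bc30-49517: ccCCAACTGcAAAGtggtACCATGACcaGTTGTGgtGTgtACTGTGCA
bc14-39-bc30-41529: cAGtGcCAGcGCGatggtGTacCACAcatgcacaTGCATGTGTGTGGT
Another pair of barcodes shares the first element with the lineage and is shown because 1 replaces the lineage in an older call and the other was found mainly after eribulin; capitals again mark the differing bases.
bc14-55-bc30-37135: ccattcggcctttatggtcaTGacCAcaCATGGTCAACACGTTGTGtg
bc14-55-bc30-98358: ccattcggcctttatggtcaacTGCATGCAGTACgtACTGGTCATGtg

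The lineage barcode stood well apart from every other barcode that was called. Of the 10000000 designed barcodes, the nearest differed from it in 6 bases. That was 1 barcode, and it was called in no cell. Among the 697 barcodes called in any condition, the nearest was bc14-55-bc30-21807, which differed in 16 bases, all in the second element, and was called in 11 cells, none of them ERI4 cells. The 15 other barcodes called in ERI4 cells differed from the lineage barcode in at least 22 bases. The 4 barcodes shown for comparison differed in 40, 34, 35 and 29 bases, in the order shown. The list of barcodes used for run 2 held 185 of the designed ones, the lineage barcode and the 4 shown for comparison among them. In all, 24 of the 697 called barcodes held the first element bc14-55. Both barcodes shown above that share it differed in 22 bases of the second element, and the other barcodes with that element and at least 20 called cells (bc14-55-bc30-99383, bc14-55-bc30-68976, bc14-55-bc30-6980, bc14-55-bc30-45479 and bc14-55-bc30-93293) in 18 to 24.

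Before drug the lineage was 1 of many small ones. It was called in 14 of 5087 barcoded UNT cells, 0.275% (0.151 to 0.461), where 506 barcodes were called and it ranked 93rd. In the nuclei run it was called in 19 of 4935 barcoded UNT nuclei, 0.385% (0.232 to 0.601), and ranked 67th of 486 barcodes. The ratio of the share in nuclei to the share in cells was 1.40 (0.702 to 2.79), so the difference between these untreated libraries lay within counting error. The lineage was thus found in both untreated libraries, from separate runs.

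Over the rounds of eribulin the share stayed below 1% in ERI1 and ERI2 and was higher in ERI3 and ERI4 cells. The lineage was called in 5 of 1356 barcoded ERI1 cells, in 7 of 882 ERI2 cells, in 305 of 2215 ERI3 cells and in 4597 of 6725 ERI4 cells, or 0.369%, 0.794%, 13.8% and 68.4%. Its rank among the called barcodes went from 57 of 132 in ERI1 to 17 of 65 in ERI2, 3 of 63 in ERI3 and 1 of 16 in ERI4 cells. Within the run 2 library the share of ERI2 was 2.15 (0.685 to 6.76) times that of ERI1, a ratio whose interval includes 1, and the share of ERI3 was 17.3 (8.24 to 36.6) times that of ERI2. Within run 1 the share of ERI4 cells was 248 (147 to 419) times that of UNT cells. By the older calls the UNT share was higher, 0.435% by the first revision and 0.437% by the earliest call, and the ratios were 161 (89.3 to 291) and 182 (94.6 to 348). Within run 3, by the latest call, the share of ERI4 nuclei was 26.2 (16.3 to 42.1) times that of UNT nuclei. ERI3 and ERI4 cells came from different runs, and round and run cannot be told apart between them.

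Under paclitaxel the lineage was called only in the cells of the first round. It was called in 6 of 1792 barcoded PAC1 cells, 0.335% (0.123 to 0.727). It was called in 0 of 569 PAC2 cells, where 3 cells, the number that a count of 0 allows, would be 0.527%, and in 0 of 2286 PAC3 cells, where they would be 0.131%. The limit in PAC2 lies above the share in PAC1, so a fall between these rounds was not detectable at this number of cells. In PAC3 the limit is below the PAC1 share but above the lower end of its interval.

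Of the 4 comparison barcodes, bc14-95-bc30-33662 was, like the lineage, higher at each round, and the other 3 were not. The share of bc14-76-bc30-49517 was already 27.4% (24.5 to 30.5) in ERI2 and 37.9% (35.9 to 39.9) in ERI3, but was 6.42% (5.85 to 7.04) in ERI4 cells. That of bc14-6-bc30-93034 was 7.67% (6.31 to 9.22) in ERI1, 1.47% (0.787 to 2.51) in ERI2, 25.0% (23.2 to 26.9) in ERI3 and 9.92% (9.21 to 10.7) in ERI4 cells. The share of bc14-95-bc30-33662 was 1.40% (0.846 to 2.18) in ERI1, 1.93% (1.13 to 3.07) in ERI2, 5.42% (4.51 to 6.44) in ERI3 and 10.7% (9.96 to 11.5) in ERI4 cells; its ERI1 and ERI2 intervals overlap. From ERI3 to ERI4 cells, that of bc14-39-bc30-41529 went from 4.70% (3.85 to 5.66) to 1.68% (1.39 to 2.02). In UNT cells these 4 barcodes were called in 8, 15, 6 and 16 cells for bc14-95-bc30-33662, bc14-6-bc30-93034, bc14-76-bc30-49517 and bc14-39-bc30-41529, beside the 14 cells of the lineage. So before drug the lineage did not stand out from those that it later exceeded. None of the barcodes that share the element bc14-55 and have at least 20 cells made up more than 0.253% of ERI4 cells, the value of bc14-55-bc30-98358 with 17 cells; that barcode was called in 0 UNT cells, 0 UNT nuclei and 53 ERI4 nuclei.

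Shares of barcoded cells leave out the cells with no single call. Of all 9331 ERI4 cells, 49.3% (48.2 to 50.3) were called as the lineage, and of all 3076 ERI3 cells, 9.92% (8.88 to 11.0). Cells without a single call were unevenly spread. In ERI4 cells, 2.16% of the 4686 cells of cluster 3, the main cluster of the lineage, were called Negative (no barcode), against 73.2% of the 1967 cells of cluster 2 and 72.9% of the 689 cells of cluster 12. The lineage's share of the barcoded cells therefore also moves with how often other cells received a call.

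In ERI4 cells the lineage lay almost wholly in cluster 3, and cluster 3 was almost wholly the lineage. Clusters are those of the authors, made from gene expression on all libraries together, and are called by number. Of the 5396 cells and nuclei in cluster 3, 86.8% were ERI4 cells, so the cluster came mostly from that library. It held 4686 of the 9331 ERI4 cells. The part that the library plays in the cluster was not tested. Of the 4597 lineage cells, 4431, or 96.4% (95.8 to 96.9), were in cluster 3. Of all 4686 ERI4 cells in cluster 3, 94.6% (93.9 to 95.2) were called as the lineage, and of the 4526 with 1 called barcode, 97.9% (97.4 to 98.3). Of the 2128 other barcoded ERI4 cells, 4.46% (3.63 to 5.43) lay in cluster 3, while cluster 8 held 63.6% (61.5 to 65.7) of them and cluster 2 held 21.8% (20.0 to 23.6). Cluster 8, with 1503 ERI4 cells, held 4 lineage cells.

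The 166 lineage ERI4 cells outside cluster 3 mostly had lineage cells as neighbours in the embedding. These 166 were spread over cluster 4 with 45 cells, cluster 10 with 40, cluster 12 with 26, cluster 6 with 23 and cluster 2 with 21, and 6 other clusters with 1 to 4 cells each. Among the 30 nearest barcoded ERI4 cells on the deposited UMAP, a mean of 74.6% were lineage cells for these 166. The lineage was 68.4% of all barcoded ERI4 cells, so this mean was little above its share. Most of the neighbours were lineage cells for 125 of the 166. The mean was 97.5% for the lineage cells in cluster 3 and 6.70% for all other barcoded cells. In cluster 6 the 23 lineage cells had a mean of 85.1% lineage neighbours and the 13 other barcoded cells 3.08%. So cells of that cluster number lay apart by barcode. Clusters 4 and 12 went the same way, with 79.9% against 24.1% and 78.5% against 5.48%. Clusters 3 and 10 did not show such a gap. The 95 other barcoded cells of cluster 3 had 82.1% lineage neighbours. In cluster 10 the mean of the 9 other barcoded cells was not below the 89.3% of the 40 lineage cells. The 21 lineage cells in cluster 2 had 38.3%, below the lineage's share, against 4.22% for the 463 other barcoded cells of that cluster. The lineage cells of cluster 4 were deep, with a median of 60936 UMIs, as were the 18 other barcoded cells there, with 61869, and 66.7% of each had the G2M score highest. Those of cluster 10 were shallow, with a median of 6543 UMIs.

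In ERI3, from another run, the lineage was also concentrated in cluster 3, but less fully. Cluster 3 took 196 of its 305 cells, or 64.3% (58.6 to 69.6). Cluster 2 took 81, or 26.6% (21.7 to 31.9), and cluster 6 took 23, or 7.54% (4.84 to 11.1). Cluster 3 held 225 ERI3 cells, and 87.1% (82.0 to 91.2) of them were the lineage. Among their 30 nearest barcoded ERI3 cells, lineage cells had a mean of 36.2% lineage neighbours, where the lineage was 13.8% of the barcoded cells, and other barcoded cells had 10.1%. The 81 lineage cells in cluster 2 had 26.2%, against 17.5% for the 953 other barcoded cells there. Lineage members of all conditions were also pooled, 5104 in all, of which 305 were ERI3 cells and 4597 were ERI4 cells. In this pool, 91.9% of the nearest lineage neighbours of the ERI3 cells were ERI3 cells and 6.57% were ERI4 cells. These conditions are separate runs, and the part that run plays in this was not tested.

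In UNT cells, UNT nuclei, ERI1 and PAC1, the main cluster of the few lineage members was also the largest cluster of the condition. With or without a call, cluster 1 held 5451 of 11061 UNT cells and cluster 0 held 6411 of 9916 UNT nuclei. Cluster 7 held 1691 of 1865 ERI1 cells, and cluster 6 held 1215 of 2928 PAC1 cells. Of the 14 UNT cells, 10 were in cluster 1 and 1 each in clusters 0, 2, 8 and 11. Of the 19 UNT nuclei, 11 were in cluster 0, 4 in cluster 1, 3 in cluster 11 and 1 in cluster 6. Of the 5 ERI1 cells, 3 were in cluster 7 and 1 each in clusters 0 and 6. Of the 6 PAC1 cells, 5 were in cluster 6 and 1 in cluster 4.

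The 7 ERI2 cells fell into 2 sets. There were 4 in cluster 3, which held only 8 of the 1257 ERI2 cells. The other 3 were in cluster 7, which held 1103 ERI2 cells. Those in cluster 3 had pseudotimes of 23.2, 25.04, 25.04 and 29.8, each had exactly 1 barcode detected, and they had 7, 1, 24 and 32 barcode counts in the same order. Those in cluster 7 had pseudotimes of 12.9, 13.3 and 14.2 and only 2, 1 and 2 barcode counts. Barcode counts here are totals over all barcodes detected in a cell, not counts of the lineage barcode alone. Of the 3 cells in cluster 7, the first revision of the call gave the lineage to 1, bc14-55-bc30-37135 to another and bc14-76-bc30-49517 to the last. In ERI1, the cells with 5, 7 and 12 barcode counts were not given the lineage by the first revision, which named the first of them bc14-21-bc30-28628 and the others Doublet, and the 2 with 124 and 48 barcode counts were. With the calls that both versions share, the lineage is 2 of the ERI1 cells and 5 of the ERI2 cells.

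Pseudotime is the authors' ordering of all cells from an untreated root, in arbitrary units, and lineage ERI4 cells lay near its far end. Their pseudotime ran from 14.05 to 31.5 with a median of 30.0 (29.8 to 30.0), and the middle 80% lay between 27.2 and 31.4. The other barcoded ERI4 cells had a median of 18.5 (18.5 to 18.5); many cells share a pseudotime value, which makes such intervals narrow. The lineage cell was the higher of a random pair in 96.8% of pairs, with ties split evenly. Against the comparison barcodes one at a time, the median of the lineage was higher by 11.5 than that of bc14-95-bc30-33662, by 12.7 than that of bc14-6-bc30-93034, by 4.29 than that of bc14-76-bc30-49517 and by 3.79 than that of bc14-39-bc30-41529. The difference of 11.5 from other barcoded cells shrank to 0.75 among the cells of cluster 3, where the 95 other cells had a median of 29.3; pseudotime and cluster come from the same expression data.

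The ERI3 cells of the lineage had a lower pseudotime than its ERI4 cells. Their median was 23.5 (23.5 to 23.5), with a lowest value of 13.9 and a highest of 31.4, against 21.8 (21.5 to 22.0) in other barcoded ERI3 cells. The lineage cell was higher in 80.7% of pairs. The lineage's median was higher by 7.94 than those of bc14-95-bc30-33662 and bc14-6-bc30-93034 and by 0.894 than that of bc14-76-bc30-49517. For bc14-39-bc30-41529 the difference was -3.36, so that this barcode lay further along in ERI3 but not in ERI4 cells. Within cluster 3 the ERI3 medians were 25.0 for 196 lineage cells and 25.3 for 20 others, a difference of -0.21, although the lineage cell was higher in 58.1% of pairs.

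In untreated cells the lineage had a higher median pseudotime than the other barcoded cells, while in untreated nuclei the medians were close. The 14 UNT cells ran from 6.33 to 18.1 with a median of 9.02 (7.80 to 14.8), and the other barcoded UNT cells had a median of 7.59 (7.56 to 7.70). The lineage cell was higher in 69.0% of pairs. Cluster 5 held 26.3% (25.1 to 27.6) of the other barcoded UNT cells and none of the 14 lineage cells. Of the 14 cells, 4 lay above 10.9, the 95th percentile of the other barcoded cells; these were the cells in clusters 11, 0 and 8 and 1 cell in cluster 1. In that order they had 1, 2, 2 and 4 barcodes detected, where 11 of the 14 had 2 or more. The earliest call named the cluster 8 cell Doublet, as it did 5 of the 14 in all. The 19 UNT nuclei ran from 4.53 to 17.4 with a median of 14.0 (9.61 to 14.9), against 13.5 (13.4 to 13.6) in other barcoded nuclei. There the lineage nucleus was higher in 52.0% of pairs, and 2 of 19 lay above the 95th percentile of 17.4. The 6 PAC1 cells lay between 17.4 and 18.7, and none was above the 90th percentile of other barcoded PAC1 cells, 22.2.

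Phase was read from the deposited S and G2M scores. A cell was called S or G2M by whichever score was higher, and G1 if neither exceeded 0. In ERI4 cells, fewer lineage cells were called S than other barcoded cells, 15.5% (14.5 to 16.6) against 29.7% (27.7 to 31.6), and more were called G1, 45.0% (43.6 to 46.5) against 32.8% (30.9 to 34.9). The G2M shares were 39.5% (38.1 to 40.9) and 37.5% (35.4 to 39.6), a difference of 2.00 points (-0.526 to 4.51); among cells of a common UMI window it was 5.83 points (2.90 to 8.73), with an interval that leaves out 0. Each comparison barcode had a higher S share than the lineage, from 26.5% (18.7 to 35.7) in bc14-39-bc30-41529 to 32.4% (28.0 to 37.0) in bc14-76-bc30-49517. Cells called Negative were at 27.2% (25.5 to 29.0). In cluster 3 the S share was 15.5% (14.4 to 16.6) for the lineage and 26.3% (17.8 to 36.4) for the 95 other barcoded cells. Such calls also respond to depth and free RNA and measure no division rate.

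In ERI3 the phase shares of the lineage were close to those of the other cells. Lineage cells were 16.1% (12.1 to 20.7) S, 40.0% (34.5 to 45.7) G2M and 43.9% (38.3 to 49.7) G1. Other barcoded ERI3 cells were 18.6% (16.9 to 20.4) S, 41.2% (38.9 to 43.4) G2M and 40.3% (38.1 to 42.5) G1. The S difference of -2.52 percentage points had an interval of -6.86 to 2.40, which holds 0 and does not reach the -14.2 (-16.4 to -11.9) of ERI4 cells. Of the 14 lineage UNT cells, 7 were called G1, 4 S and 3 G2M; with these numbers the S share of 28.6% (8.39 to 58.1) and the 31.9% (30.6 to 33.2) of other barcoded UNT cells could not be told apart.

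The share of UMIs in mitochondrial genes was slightly higher in lineage ERI4 cells than in the others. The medians were 4.85% (4.82 to 4.88) and 4.40% (4.36 to 4.43), and the lineage cell was higher in 65.8% of pairs. Of the comparison barcodes, bc14-95-bc30-33662 was furthest below the lineage, by 0.878 percentage points, and bc14-39-bc30-41529 nearest, by 0.192. In cluster 3 the difference was 0.350 points. In ERI3 the medians were 2.96% (2.78 to 3.12) and 2.96% (2.91 to 3.00), with a difference of 0.0067 points (-0.222 to 0.211).

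Depth differed along with these values. Lineage ERI4 cells had a median of 20007 UMIs (19713 to 20374), the lowest cell 1190 and the highest 110111, and other barcoded cells had 22889 (22459 to 23375). In cluster 3 the 95 other barcoded cells were deeper still, with 31772 against 19938 in the lineage. The genes detected were closer, with 4314 (4279 to 4354) against 4468 (4410 to 4511). In ERI3 the lineage had 12041 UMIs (11496 to 12852) and the others 11324 (11077 to 11567). The part of depth in the phase, mitochondrial and pseudotime differences was not tested beyond a window of UMI counts common to both sets, whose values are given in the closing section.

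The lineage's share also moved with depth. When ERI4 cells were split into 4 equal parts by UMI count, the lineage was 81.2% (79.2 to 83.1) of the barcoded cells in the part with the fewest UMIs, and 68.3%, 62.7% and 62.4% (60.0 to 64.7) in the others in rising order. Of all cells, with or without a call, it was 53.7% (51.7 to 55.7), 52.2%, 45.4% and 45.8% (43.7 to 47.8), and the share of cells with a call was lowest in the shallowest part, at 66.1%, against 72.3% to 76.4% in the others. In ERI3 the same split gave 12.3% (9.65 to 15.4), 11.8%, 13.8% and 16.9% (13.9 to 20.2), with the highest share in the deepest part.

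Most lineage ERI4 cells showed the lineage barcode alone. Exactly 1 barcode was detected in 2775 of 4597, or 60.4% (58.9 to 61.8), against 21.1% (19.4 to 22.9) of other barcoded ERI4 cells. Among the comparison barcodes this share ran from 6.19% (2.53 to 12.3) in bc14-39-bc30-41529 to 29.1% (25.7 to 32.7) in bc14-6-bc30-93034. In ERI3 the lineage was not higher: the share was 86.9% (82.6 to 90.5) in lineage cells and 90.7% (89.3 to 92.0) in other barcoded cells. There the comparison barcodes ran from 87.5% in bc14-39-bc30-41529 to 97.3% in bc14-76-bc30-49517. The lineage ERI4 cells with 2 or more barcodes numbered 1822, up to 5 barcodes each. They were deeper, with a median of 23069 UMIs against 18345 in those with 1. The table does not say which further barcodes they held. Cells with the lineage barcode as 1 of several may be droplets of 2 cells or hold free RNA; this was not tested.

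Barcode counts per cell were higher in the lineage than in other barcoded cells of both eribulin conditions. Lineage ERI4 cells had a median of 30 barcode counts (30 to 31), and other barcoded cells 23 (22 to 24). This did not hold against every barcode or within cluster 3: bc14-6-bc30-93034 had a median of 34, and the 95 other cells in cluster 3 had 49 against 31. In ERI3 the medians were 15 (14 to 16) and 5 (4 to 5). There the comparison barcodes had medians lower than the lineage by 3 for bc14-95-bc30-33662, 4 for bc14-6-bc30-93034, 12 for bc14-76-bc30-49517 and 13 for bc14-39-bc30-41529, although their UMI medians were lower by no more than 1823. Of the 305 ERI3 lineage cells, 2 had 2 or fewer barcode counts and 293 had 5 or more. These are totals over all barcodes of a cell, and 40 of the 305 had 2 or more barcodes. In UNT cells, 3 of 14 lineage cells had exactly 1 barcode and 11 had 2 or more, up to 9; among other barcoded UNT cells 87.5% (86.5 to 88.4) had 2 or more.

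The deposited table also holds 2 older versions of the call, the earliest and its first revision. In ERI4 cells they differed little for the lineage. The earliest call gave the same barcode to 4337 of the 4597 lineage cells, 94.3%, and named the other 260 Doublet. The first revision gave it to 4487, 97.6% (97.1 to 98.0), and named 110 Doublet. All 2775 cells with exactly 1 barcode kept the call in both. The 260 former doublets had a median of 25221 UMIs (21257 to 29608), against 19921 (19600 to 20231) in the cells called the same from the start, and a median pseudotime of 28.9 (28.6 to 29.4) against 30.0. A further 9 ERI4 cells were the lineage only by the first revision; the latest call named 5 of them Doublet and 4 Negative.

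In the other cell conditions the later version mostly turned doublets into lineage cells. Of the 305 ERI3 cells, the earliest call gave 284 the lineage and named 21 Doublet, and the first revision gave 298 and named 7. Of the 14 UNT cells, the earliest call gave 9 the lineage and named 5 Doublet, and the first revision gave 11 and named 3. All 6 PAC1 cells and all 19 UNT nuclei had the same call in each version. The call versions also changed how many other cells were barcoded: the lineage's share of barcoded ERI4 cells was 79.4% (78.3 to 80.5) by the earliest call and 70.0% (68.9 to 71.2) by the first revision, against 68.4% by the latest.

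In ERI4 nuclei the versions gave different lineages. By the latest call the lineage was 151 of 1495 barcoded nuclei, 10.1% (8.62 to 11.7), behind bc14-76-bc30-49517 with 452, bc14-6-bc30-93034 with 425 and bc14-95-bc30-33662 with 188. By the first revision it was 3201 of 4245, 75.4% (74.1 to 76.7), and by the earliest call 96 of 449, 21.4% (17.7 to 25.5), and it ranked 1st by both. All 96 nuclei of the earliest call were still the lineage in the latest. Of the 3201 nuclei of the first revision, 98 were, 2583 were Negative in the latest call, and 164, 157 and 70 were bc14-6-bc30-93034, bc14-76-bc30-49517 and bc14-95-bc30-33662. Every nucleus, Negative ones included, has at least 1 barcode feature, and the table does not name it. If that feature is left out, as in all values here, no barcode was detected in 1520 of those 3201 and 1 in 1441; of the 2583 now Negative, 1519 had none and 1063 had 1. Going the other way, of the 151 nuclei of the latest call, 98, or 64.9% (56.7 to 72.5), had the same call in the first revision, 25 were Negative, 15 were bc14-76-bc30-49517, 10 were bc14-6-bc30-93034 and 3 were bc14-95-bc30-33662. UNT nuclei, made in the same run, showed no such change: all 19 lineage nuclei were the same in each version. The number of barcoded UNT nuclei did change. The lineage was 0.769% (0.464 to 1.20) of 2471 by the earliest call and 0.385% of 4935 by the latest.

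Lineage nuclei of the latest call were far deeper than the others. Their median was 6806 UMIs (5831 to 7612), against 2858 (2731 to 2979) in other barcoded ERI4 nuclei and 1965 (1939 to 1996) in Negative ones. When the nuclei were split into 4 nearly equal parts by UMI count, the lineage was called in 0, 4, 14 and 133 nuclei from the shallowest to the deepest part. In the shallowest part this was 0 of 188 barcoded nuclei, which allows up to 1.60% by the same limit of 3, and in the deepest 18.1% (15.4 to 21.1) of 734. The first revision moved less with depth: it gave the lineage 77.6% (74.9 to 80.1) of the barcoded nuclei in the shallowest part and 71.0% (68.3 to 73.6) in the deepest. The part of depth in the latest call was not tested. In UNT nuclei the 19 lineage nuclei were not deeper than the others, with 3036 UMIs (2436 to 3954) against 3618 (3564 to 3670).

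Most lineage ERI4 nuclei lay in cluster 10, in which 92.6% of all members were ERI4 nuclei and only 157 were ERI4 cells of any barcode. Of the 151, 121, or 80.1% (72.9 to 86.2), were in cluster 10, against 37.7% (35.1 to 40.4) of the other barcoded ERI4 nuclei, with 18 in cluster 4, 11 in cluster 3 and 1 in cluster 8. Of the 3201 nuclei of the first revision, cluster 4 held 53.7% (52.0 to 55.4), cluster 10 held 24.9% (23.4 to 26.5) and cluster 3 held 4.47% (3.78 to 5.24). The lineage nuclei did not stand apart in the embedding as the cells did: a mean of 15.7% of their 30 nearest barcoded nuclei were the lineage, where it was 10.1% of the barcoded nuclei. Their median pseudotime was 25.0 (24.9 to 25.4), against 24.0 (23.9 to 24.1) in other barcoded nuclei, and in cluster 10 both medians were 25.4. The lineage nuclei of cluster 10 had a median of 7685 UMIs and the others there 5460. Over all clusters, the mitochondrial share was 15.9% (14.9 to 16.7) in lineage nuclei against 14.0% (13.6 to 14.3) in other barcoded ERI4 nuclei. Exactly 1 barcode was detected in 82.8% (75.8 to 88.4) of lineage nuclei and 58.6% (55.9 to 61.2) of other barcoded ERI4 nuclei.

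Cell barcodes, the droplet labels, were compared between libraries. Between 0 and 26 were shared by any pair of libraries, at most 0.335% of the smaller one, except the 2 nuclei libraries, which shared 134, or 1.54%. None of the UNT lineage cells or UNT lineage nuclei had a cell barcode that was also in the ERI4 library of the same run. The ERI4 cells and the ERI1 to ERI3 library shared 12, and 1 of these was called the lineage in both. All lineage cells lay inside the filter that the series states, at least 200 genes and at most 50% of UMIs in mitochondrial or in ribosomal genes.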

How the data were processed

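The authors deposited a table of cells and nuclei with count columns (UMIs, genes, barcode counts and detected barcodes, not normalized), percent columns (share of UMIs in mitochondrial and ribosomal genes) and score columns (S and G2M scores for runs 1 and 2, pseudotime), with clusters, 3 barcode calls, UMAP coordinates and barcode sequence lists. Per the submitters' processing notes, mm10, Cell Ranger 3.1.0, Cell Ranger 4.0.0, Cell Ranger ARC 1.0.0 and Seurat 3.1.4 were used. Barcode names of UNT nuclei, spelled without inner hyphens, were brought to the common spelling. Every nucleus has at least 1 barcode feature, so 1 was subtracted. Barcode counts of nuclei, above 0 also in Negative ones, are not reported here. They did enter the comparison of directions from which the flagged results were taken. A column that calls the run 1 eribulin library ERI1 was not used. No doublet caller was run; doublets are those of the deposited calls.

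Values were computed with Python 3.11.15, pandas 2.3.3, numpy 2.4.6 and scipy 1.17.1, in scripts tested on simulated data. With 1 library per condition no test was made. The interval of a difference of medians combines the opposite bounds of both values. For a difference of phase shares, the distances to those bounds were joined as the root of their summed squares. Ratios of shares have 95% intervals on the log scale. The lineage and the lists were chosen with earlier results of these data known. Named barcodes are the lineage, the next 4 in ERI4 cells, those with its first element and at least 20 cells, and older labels of at least 1% of a condition's lineage cells. The nearest called barcode, bc14-55-bc30-21807, was named after its values were seen. Alternatives were the older calls, all cells, exactly 1 barcode, a common UMI window (10th to 90th percentile), the main cluster, G1 cells, a phase threshold of 0.05 and the stated filter.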

Additional observations from a re-analysis of the deposited data

Results flagged for a closer look

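Depth differed between lineage and other barcoded members in opposite directions in the cells and nuclei taken after 4 rounds of eribulin. The median of the lineage minus that of the others was -2882 UMIs in ERI4 cells and 3948 UMIs in ERI4 nuclei. With exactly 1 detected barcode the ERI4 cell difference was -343 (-1412 to 868), an interval that includes 0. For genes per cell it was -154 in ERI4 cells and 1156.5 in ERI4 nuclei. Each direction comes from 1 library, and the difference between them was not tested.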

How the results depend on the processing

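Over 14 results and 55 alternatives, 23 values stayed within the main value's interval, 31 moved out of it and 1 difference changed sign; of the 28 alternatives of differences, 27 kept their sign. Within the main cluster the pseudotime difference was 0.750 in ERI4 cells and changed sign in ERI3 (-0.208). That setting also gave a mitochondrial difference of 0.350 points, an S difference of -10.8 points and a G2M difference of 7.73 points in ERI4 cells; chosen after seeing the data, the UMI difference there was -11834. Over all cells instead of barcoded ones, the lineage's share was 0.127% of UNT cells, 49.3% of ERI4 cells, 9.92% of ERI3 and 1.73% of ERI4 nuclei. With exactly 1 detected barcode these shares were 0.470%, 86.1%, 13.3% and 13.7%; 97.6% of lineage ERI4 cells were then in cluster 3, and the ERI4 differences were 12.4 in pseudotime, -343 UMIs (-1412 to 868) and 4.69 points in G2M. The first revision gave 70.0% of ERI4 cells, 75.4% of ERI4 nuclei and 97.1% in cluster 3. The earliest call, added after seeing the data, gave 79.4% of ERI4 cells and 21.4% of ERI4 nuclei, and nuclei with at least 5000 UMIs, also added, gave 25.3%. In the common UMI window 98.6% of lineage ERI4 cells were in cluster 3, and the differences were 11.2 in pseudotime in ERI4 cells and 1.38 in ERI3, 0.383 points in the mitochondrial share, -1225 UMIs and 5.83 points (2.90 to 8.73) in G2M. The S difference of ERI4 cells in that window was -15.2 points (-17.9 to -12.5), within the main value's interval. Among G1 cells the pseudotime differences were 12.3 in ERI4 cells and 2.62 in ERI3. Of lineage ERI4 cells with exactly 1 barcode, 100% had the same first revision. The cause of these changes was not tested. No paired analysis was possible because each condition has 1 library. The number of barcoded cells limits ERI1, ERI2, PAC1, PAC2 and UNT values.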
